A study of Homo sapiens with 6 samples.

Results

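The loci described here are stretches of transcript that an assembly step joined from sequencing reads of ARPE-19 cells and that match no annotated transcript. They were taken from the deposited table as rows with an assembler's identifier (MSTRG) and no Ensembl transcript, with a count of 12 or more in at least 3 of 6 libraries. Of 60835 rows, 33633 carried an assembler's identifier, 3924 of these held no annotated transcript, and 3361 reached the count minimum. All 3361 also passed the filter of the test, which 25025 rows passed in all.

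ARPE-19 is an established human retinal pigment epithelium line. Wild-type cells were kept in normal or in high glucose medium for 72 h, and each group gave 3 libraries, called normal 1 to 3 and high 1 to 3. Neither the glucose concentrations nor the number of cultures behind a group stand in the labels. The p-values therefore weigh the difference between groups only against the spread among libraries of a group, and that spread may be technical. Library totals ran from 81616741 to 87748820 counts, and 1 sequenced fragment seems to have been counted about 4 times, since 9555 values of 4 stood against 4210 of 3 and 2659 of 5.

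Transcript assemblers build models from overlapping reads without regard to the annotation, so their output holds more than new genes. Introns, read-through past a gene's end, antisense and divergent transcripts, enhancer RNAs, transcribed pseudogenes and RNA polymerase III genes can all appear as loci of their own. A locus assembled from a spliced read takes its strand from the splice site or from the library, while unspliced pieces from libraries without strand information have none. Short neighbouring pieces may be fragments of 1 transcript, so these loci are not independent of each other.

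Divergent loci are shown first, because for them the start of an assembled locus can be placed within a promoter. A divergent locus was defined, after values had been seen, as one on a given strand whose 5′ end lay within the 250 bases before the RefSeq start of a protein-coding gene on the other strand. Of 17 such loci, 4 had risen and 3 had fallen in high glucose by the call rule used throughout, an edgeR quasi-likelihood adjusted p under 0.05, a rule by which 9.75% of all tested loci were higher and 9.86% lower. The 4 windows below are those of called divergent loci whose nearest coding row was the single-gene row of that partner. Each is the RefSeq sequence of the 250 bases before the coding gene's start on GRCh38.p14, 5′ to 3′ on the coding gene's strand, and the assembled locus runs away from it on the other strand. Capitals mark matches on either strand to the CCAAT box (CCAAT) and to the GC box (GGGCGG), neighbouring GC box matches being free to overlap.
HYOU1 (chr11:119057206-119057455, minus strand): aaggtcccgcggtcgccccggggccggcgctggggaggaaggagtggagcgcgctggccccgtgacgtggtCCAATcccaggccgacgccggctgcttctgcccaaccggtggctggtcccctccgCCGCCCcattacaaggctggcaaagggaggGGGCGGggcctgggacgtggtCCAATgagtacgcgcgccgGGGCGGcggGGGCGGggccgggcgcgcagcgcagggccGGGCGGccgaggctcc
STIP1 (chr11:64185022-64185271, plus strand): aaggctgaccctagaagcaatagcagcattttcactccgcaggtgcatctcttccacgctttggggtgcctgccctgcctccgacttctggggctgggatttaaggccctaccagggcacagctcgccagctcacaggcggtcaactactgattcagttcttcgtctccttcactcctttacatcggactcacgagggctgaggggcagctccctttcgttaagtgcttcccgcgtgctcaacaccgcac
EPHX4 (chr1:92029735-92029984, plus strand): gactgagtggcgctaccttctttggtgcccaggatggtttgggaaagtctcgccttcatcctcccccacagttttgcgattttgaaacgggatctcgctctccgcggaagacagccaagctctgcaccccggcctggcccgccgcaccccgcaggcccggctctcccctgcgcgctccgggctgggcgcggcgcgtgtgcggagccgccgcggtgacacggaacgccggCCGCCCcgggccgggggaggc
CNBP (chr3:129183897-129184146, minus strand): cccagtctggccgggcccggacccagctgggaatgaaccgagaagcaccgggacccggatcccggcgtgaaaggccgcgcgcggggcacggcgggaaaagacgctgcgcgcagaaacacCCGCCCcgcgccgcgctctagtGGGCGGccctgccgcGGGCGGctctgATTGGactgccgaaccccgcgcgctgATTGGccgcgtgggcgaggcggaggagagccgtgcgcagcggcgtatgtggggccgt

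A CCAAT box match stood in 32% and a GC box match in 42.6% of 35116 RefSeq promoter windows of this length. The HYOU1 window held 2 CCAAT and 5 GC box matches, the CNBP window 2 and 3, the EPHX4 window 0 and 1, and the STIP1 window 0 and 0. Their GC content was 77.6%, 74.4%, 70.8% and 57.6%, against a median of 58.0% over all windows. A match is a description of these letters only.

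MSTRG.7452 began 216 bases before the start of HYOU1, which encodes a chaperone of the endoplasmic reticulum. Its levels were 0.647, 0.932 and 0.265 CPM (counts scaled to TMM library size) in normal 1, 2 and 3 and 0.135, 0.0684 and 0.0364 CPM in high 1, 2 and 3. The groups did not overlap, and normal 3 was the lowest of the normal glucose libraries. The locus fell by 2.92 on the log2 scale (SE 0.704, n = 3 per group, edgeR adjusted p = 0.0298), while HYOU1 fell by 2.60 (adjusted p = 0.0128), and the difference between both changes was -0.22 (SE 0.567, limma adjusted p = 0.863). The high glucose levels of the locus lay at or below the floor of 12 counts (0.135 to 0.146 CPM). Its call was lost when any library other than normal 3 was left out (adjusted p 0.0587 to 0.108) and kept without normal 3 (0.0123).

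MSTRG.6601 began 29 bases before STIP1, a cochaperone that links HSP70 and HSP90. It stood at 4.64, 4.31 and 6.31 CPM in normal and at 1.75, 1.55 and 1.95 CPM in high glucose, with no overlap. It fell by 1.54 (SE 0.232, edgeR adjusted p = 0.00755), whereas STIP1 differed by -0.13 (adjusted p = 0.432). The locus fell further than its partner by 1.39 (SE 0.284, limma adjusted p = 0.0262).

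MSTRG.2610 started 20 bases before EPHX4, an epoxide hydrolase gene. Levels were 5.76, 6.0 and 4.94 CPM in normal and 11.6, 12.1 and 12.8 CPM in high glucose. Every high glucose library was above every normal glucose library. The locus rose by 1.13 (SE 0.154, edgeR adjusted p = 0.00571) and EPHX4 differed by -0.45 (adjusted p = 0.0728), a gap of 1.57 (SE 0.247, limma adjusted p = 0.0093).

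MSTRG.23905 started 164 bases before CNBP, which encodes a zinc finger protein that binds nucleic acids. It spanned 16834 bases with an exonic length of 2169 bases, so it was spliced. Its levels were 1.14, 1.31 and 1.68 CPM in normal and 4.94, 5.14 and 4.50 CPM in high glucose. The locus rose by 1.82 (SE 0.225, edgeR adjusted p = 0.00451) while CNBP fell by 0.47 (adjusted p = 0.0207), a gap of 2.28 (SE 0.292, limma adjusted p = 0.00419). Thus 3 of these 4 loci moved apart from the gene that starts beside them and 1 was not separated from it. These loci were taken because they were called, which favours such a gap. Over all assembled loci with a tested neighbour, 8.3% were separated from the nearest coding row.

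**Figure D1:**
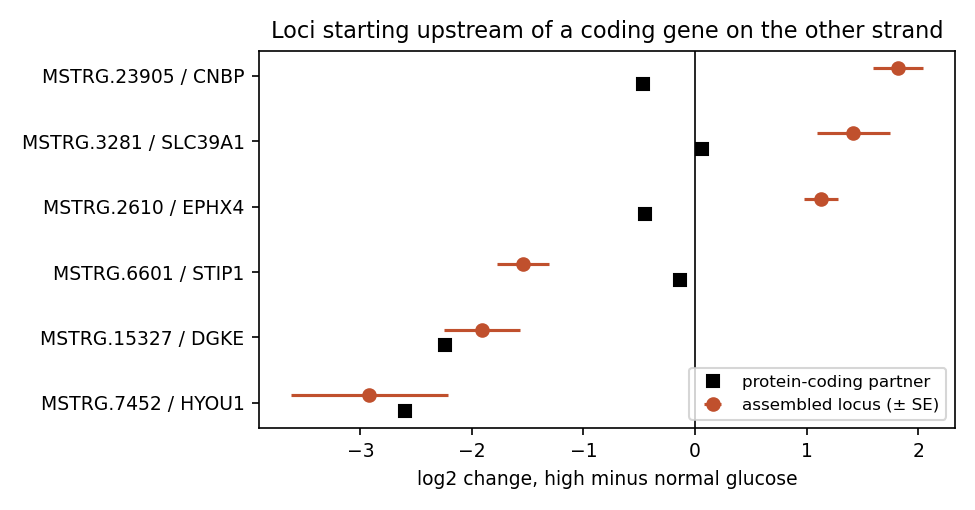
The plot shows log2 changes (horizontal axis, high minus normal glucose) of 6 called divergent loci (circles, bars ± SE) and of the table rows of their protein-coding partners (squares). Locus and partner lie on the same side of 0 for HYOU1, DGKE and STIP1, on opposite sides for EPHX4 and CNBP, and the SLC39A1 row, which also holds CRTC2, JTB and RAB13, is near 0 at 0.06.

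Most of the 3361 loci were short and weakly expressed. The median length (end minus start) was 714 bases, with a range from 199 to 433478, and the median of the mean count was 68.2, against 300.0 over all tested loci. No strand was given for 2180 (64.9%), while 606 lay on the plus and 575 on the minus strand. By the ratio of count to FPKM, which is proportional to exonic length, none of 1951 unstranded loci with enough counts had an exonic length under 90% of its span, so they were unspliced. Of 1051 stranded loci, 406 (38.6%) were under that share and are called spliced, which describes the assembled model. Members of 1 strand within 10 kb of each other formed 2738 clusters, and 1053 loci shared a cluster with another.

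The loci overlapped a protein-coding row in 1481 cases (44.1%). Another 408 lay up to 1 kb from the nearest coding row, 689 at 1 to 10 kb, 475 at 10 to 100 kb and 308 farther than 100 kb. A RefSeq gene of any kind was overlapped by 2085, and 1276 overlapped none. In 2315 loci the count minimum was reached in all 6 libraries. In 89 it was reached in every normal glucose library and in no high glucose library, and in 63 the reverse held. The membership rule can be met through either group alone, and the same counts over all tested loci were not made. These counts therefore only describe the set.

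Together the loci held 1.17%, 1.31% and 0.999% of the counts of normal 1, 2 and 3 and 1.15%, 1.04% and 0.971% of those of high 1, 2 and 3. The groups overlapped. The unstranded loci alone held 0.297%, 0.281% and 0.255% in normal against 0.239%, 0.234% and 0.241% in high glucose, where the groups did not overlap. Stranded loci held 0.744% to 1.03% and 0.73% to 0.914%, which overlapped.

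Comparing high with normal glucose, edgeR called 239 of the 3361 loci higher and 392 of them lower. That is 7.11% and 11.7%, beside 9.75% called higher and 9.86% called lower over all 25025 tested loci. In either direction 631 were called, or 18.8% against 19.6% of all tested loci, so the share is near the background and the lower calls outnumber the higher ones. The median log2 change was -0.20 against 0.00 over all tested loci, 0.01 over 13786 protein-coding rows and 0.10 over 4381 annotated long noncoding rows. Setting the 24 loci without a count in 1 group to their bound left the median at -0.20. The counts rested on all 6 libraries. They were 320 higher and 518 lower without normal 3, between 141 and 152 higher and between 174 and 199 lower without normal 1 or 2, and between 77 and 85 higher and between 114 and 147 lower without a high glucose library.

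Unstranded loci gave 118 higher and 233 lower calls with a median of -0.24, and stranded loci gave 121 and 159 with a median of -0.13. The share called was 16.1% in the former, whose median count was 46.7, and 23.7% in the latter, whose median count was 148. Length, in classes bounded at 500, 2000 and 10000 bases, moved with the calls in the same way. In the shortest class 9.68% of 1260 loci were called (median count 27.0), in the next class 17.6% of 1316 (median count 88.0), in the class up to 10000 bases 35.5% of 591 (median count 311) and above 10000 bases 34.5% of 194 (median count 287). Over all tested loci the same classes gave 6.98%, 10.6%, 956 of 4790 loci and 24.4%. Among 190 unstranded loci between 2000 and 10000 bases 18 were called higher and 61 lower, with a median of -0.49.

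**Figure D2:**
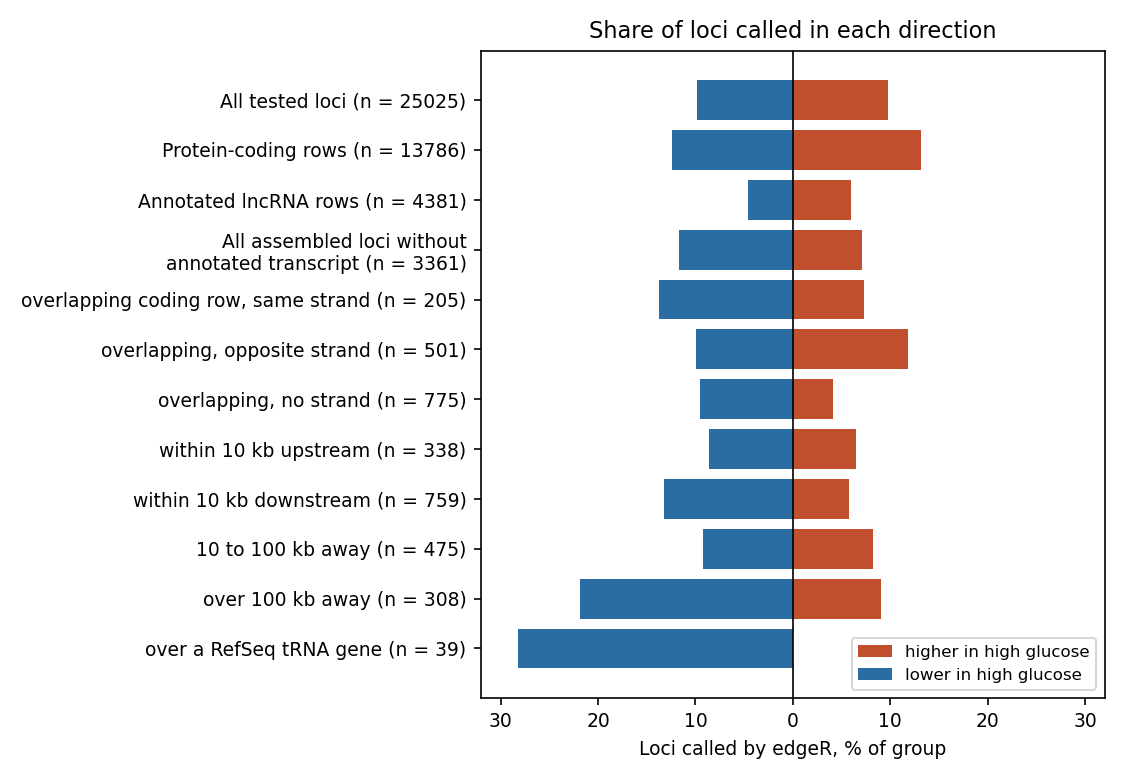
Bars give the percentage of loci called by edgeR in each group, to the right when higher and to the left when lower in high glucose, with the number of loci in brackets. Assembled loci have more lower than higher calls (11.7% against 7.11%), and among the groups drawn the lower share is 28.2% for loci over tRNA genes and 21.8% for loci farther than 100 kb, above the others.

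The position relative to the nearest coding row gave different balances of higher and lower calls. Over all tested loci 9.75% were called higher and 9.86% lower. Within 10 kb downstream of a coding row, where read-through past its end would fall, 44 of 759 loci were called higher and 100 lower. That is 5.8% and 13.2%, and the median there was -0.34. Within 10 kb upstream, 22 of 338 were called higher and 29 lower (6.51% and 8.58%), with a median of -0.02. On the opposite strand of an overlapped coding row 59 of 501 were called higher and 50 lower (11.8% and 9.98%), with a median of -0.03. On its own strand 15 of 205 were higher and 28 lower (7.32% and 13.7%). Of 775 unstranded loci overlapping a coding row 32 were higher and 74 lower (4.13% and 9.55%), with a median of -0.30. With a library left out, the downstream counts ran from 5 higher and 18 lower (without high 3) to 57 and 122 (without normal 3), and the opposite-strand counts from 20 to 80 higher and 16 to 84 lower. These classes are descriptions, their difference was not tested, and the same positions were not counted over all tested loci.

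By chromosome, 14 of 210 loci on chromosome 6 were called higher and 50 lower (30.5%), and 28 of 154 on chromosome 9 were higher and 26 lower (35.1%). Over all tested loci the shares were 23.5% and 21.8%. Without the runs of neighbouring loci described below, chromosome 6 gave 14 and 24 calls among 182 loci (20.9%) and chromosome 9 gave 17 and 22 among 134 (29.1%). Chromosome 22 had 11 higher calls and 1 lower call among 78 loci (14.1% and 1.28%), against 11.7% and 6.39% of all tested loci there. Chromosome 19 had the fewest calls per locus among autosomes, with 9 higher and 7 lower of 229 (6.99%), against 16.6% of all tested loci there.

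Loci close to a coding row had log2 changes more like that row's than distant loci had. Among downstream loci within 10 kb whose coding row was called lower, 42 of 109 were called lower and 0 higher, with a median of -1.21. Where that row was called higher, 24 of 106 loci were called higher and 2 lower, with a median of 0.80. Where it was not called, 18 of 532 were higher and 54 lower, with a median of -0.37. Across downstream loci Pearson's r between both log2 changes was 0.58 (n = 747 loci beside 595 rows), across opposite-strand overlaps 0.58 (n = 499), at 10 to 100 kb 0.24 (n = 413) and beyond 100 kb 0.00 (n = 225). Locus and row come from the same libraries, and overlapping ones may share reads, because nothing states that counting used strand.

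The difference between each locus and its nearest coding row was tested within the libraries. Of 10474 loci with a tested neighbour 620 (5.92%) were called by limma, and of the 3170 assembled loci among them 263 (8.3%), 100 moving above and 163 below the neighbour. Beyond 100 kb from any coding row, 28 of 308 loci were called higher and 67 lower, 30.8% beside 19.6% of all tested loci. With a library left out, 12 to 35 were higher and 37 to 75 lower. In this class 22 lower calls came from a run on chromosome 6, 11 from a run on chromosome 11 and 4 higher calls from a run on chromosome 9. The other 266 loci gave 24 higher and 34 lower calls (21.8%), with a median of -0.10.

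**Figure D3:**
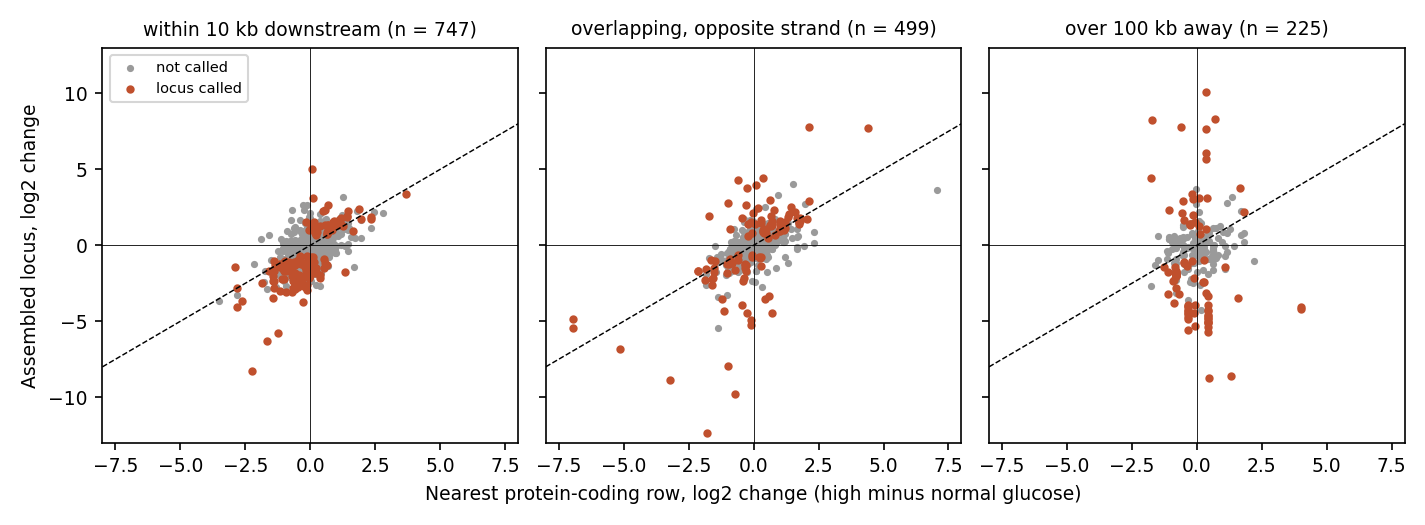
Each point is an assembled locus, placed by the log2 change of its nearest protein-coding row (horizontal) and its own (vertical), both high minus normal glucose, with the dashed line where they are equal and loci called by edgeR in colour. Downstream loci and opposite-strand overlaps follow the line (Pearson's r 0.58 in both), while loci over 100 kb away do not (0.00).

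Runs were formed, after values had been seen, from loci at most 100 kb apart on either strand. There were 1885 runs, and 16 of them held 4 or more loci called in 1 direction, 12 mostly lower and 4 mostly higher. Loci of a run may be pieces of 1 transcript and were not counted as separate evidence.

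The largest run lay at chromosome 6, 74098953 to 74650718, between CD109, which encodes a cell-surface glycoprotein, and COL12A1, which encodes a collagen. All 22 of its loci were called lower, with log2 changes from -5.71 to -3.35 and a median of -4.53. Their summed levels were 398, 346 and 113 CPM in normal 1, 2 and 3 and 12.2, 10.8 and 10.5 CPM in high 1, 2 and 3. Normal 3 thus held less than the other normal glucose libraries and still more than every high glucose library. All 22 lay inside the span of an annotated long noncoding row, AL357507, 10 on its strand, 3 on the other and 9 without strand, and that row fell by 4.61 (edgeR adjusted p = 0.00876). CD109 differed by 0.43 (adjusted p = 0.071) and COL12A1 by -0.35 (adjusted p = 0.0926). In all 22 the change was below that of the nearest coding row (limma adjusted p under 0.05). The longest unspliced piece, MSTRG.28624, had 90.2, 78.2 and 24.5 CPM in normal and 2.81, 2.55 and 1.86 CPM in high glucose. It fell by 4.74 (SE 0.517, adjusted p = 0.00315) over an exonic length of 27352 bases. Omitting a library left 17 to 22 of the 22 called.

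On chromosome 11, 16 loci lay between 90611715 and 90930998, 15 of them inside the span of DISC1FP1, an annotated noncoding row. In high glucose 11 were called lower and 0 higher, with called log2 changes from -2.82 to -1.67. The summed levels were 117, 107 and 91.5 CPM in normal and 34.2, 27.6 and 24.6 CPM in high glucose. MSTRG.7152, an unspliced piece of 21178 bases, fell by 1.76 (SE 0.184, edgeR adjusted p = 0.00292), from 35.4, 32 and 27.4 CPM to 11.1, 9.15 and 7.66 CPM. DISC1FP1 fell by 1.72 (adjusted p = 0.00385), and CHORDC1, the nearest coding row and a gene for a protein that binds HSP90, fell by 0.80 (adjusted p = 0.0057). Omitting a library left 7 to 11 called. Only 3 of the 16 loci were separated from CHORDC1, falling further than it (limma adjusted p under 0.05).

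The run with the largest rise lay at chromosome 9, 38142504 to 38204093, between SHB and ALDH1B1, which encodes a mitochondrial aldehyde dehydrogenase. All 7 loci were called higher and together went from 0.427, 0.361 and 0.385 CPM to 37.8, 37.7 and 43.2 CPM. Every high glucose library was above every normal glucose library, where most values lay at or under the floor. MSTRG.32680, on the plus strand, spliced, with 2 transcripts and an exonic length of 3159 bases, had counts of 0, 0 and 0 in normal and 423, 381 and 430 in high glucose. It was at least 33.8-fold higher, taking the floor of 12 counts per library for the group at 0 (edgeR adjusted p = 0.00138). It spans a small row named U8, after a small nucleolar RNA, and RefSeq places LOC124900277 there.

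MSTRG.32683, on the minus strand within the same run, went from 24, 23 and 16 counts to 1840, 2010 and 2022 counts. It rose by 6.52 (SE 0.22, edgeR adjusted p = 0.000155), and its difference from the nearest coding row was 6.05 (SE 0.27, limma adjusted p = 3e-05). MSTRG.32684, on the plus strand, went from 11, 8 and 8 to 694, 576 and 634 counts and rose by 6.10 (SE 0.257, adjusted p = 0.000367). MSTRG.32686 had no count in normal and 109, 120 and 185 in high glucose, at least 11.4-fold higher. MSTRG.32687 rose by 5.68 (SE 0.8, adjusted p = 0.00624), from 2, 0 and 8 counts to 183, 143 and 213. The coding row that ends before the run, which holds FBXO10, TOMM5, EXOSC3, SLC25A51 and SHB together, rose by 0.36 (adjusted p = 0.0416), and ALDH1B1 beyond it rose by 1.64 (adjusted p = 0.00552). Omitting a library left 6 or 7 of the 7 called.

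**Figure D4:**
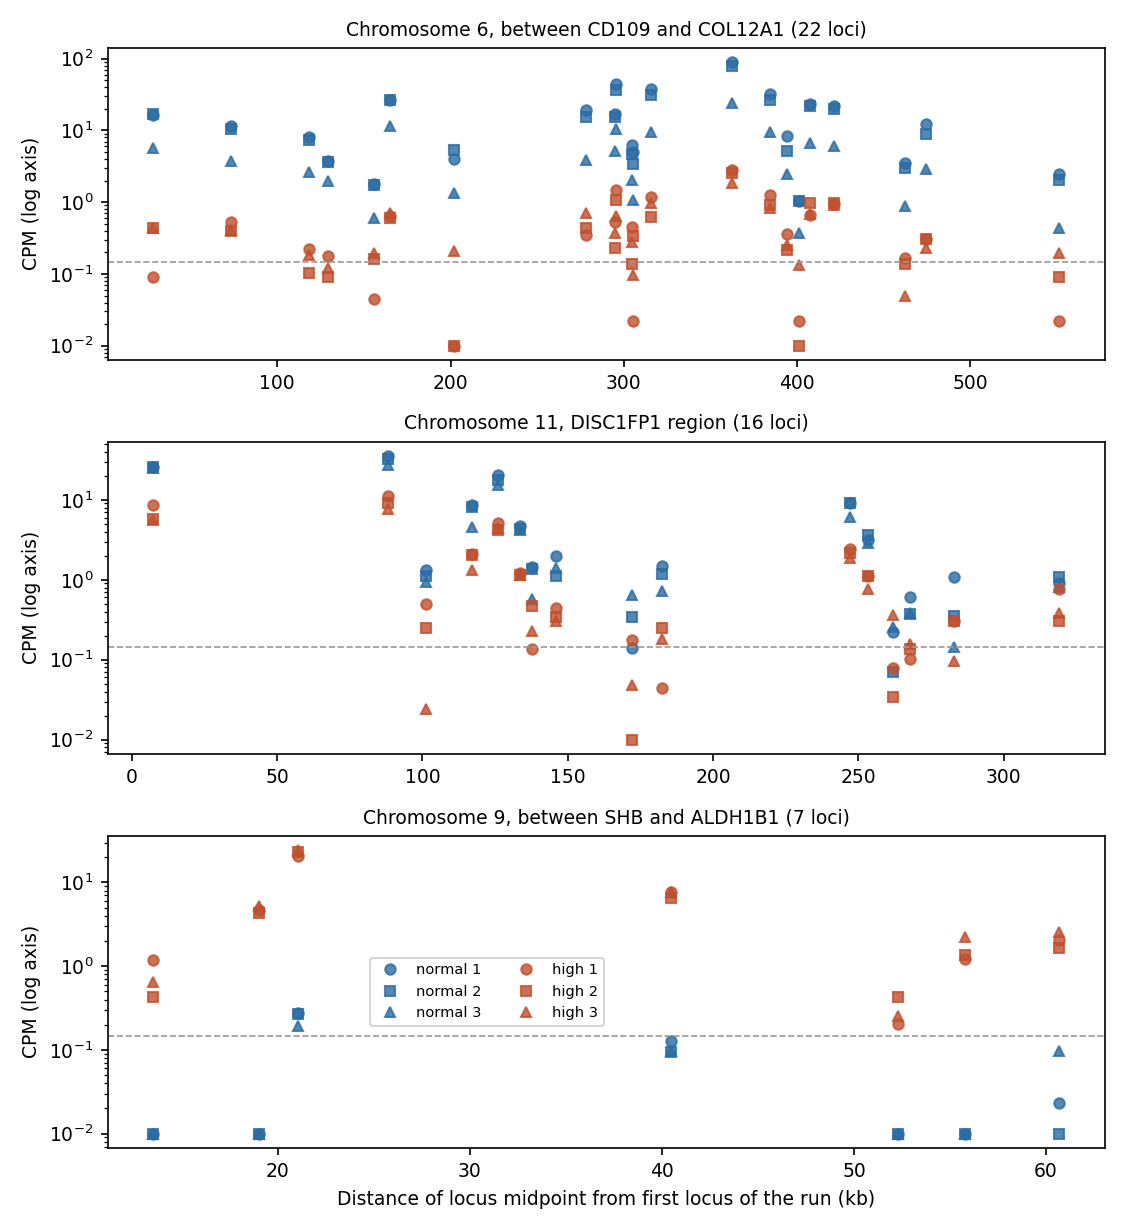
Points give the level in CPM (log axis) of each locus of 3 runs in each library, by the distance of its midpoint from the run's first locus. Values under 0.01, zeros included, are drawn at 0.01, and the dashed line is the highest floor of 12 counts (0.146 CPM). In the top panel all normal glucose libraries are above the high glucose ones, with normal 3 lowest among them, in the middle panel most are, and in the bottom panel the order is the opposite.

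Where runs lay in or behind the row of a changed gene they changed with it. A row of chromosome 21 joins MRPS6, the myo-inositol transporter gene SLC5A3 and AP000317. Inside its span, 5 unspliced loci between 34145987 and 34179536 were all called lower. All 5 carry the name AP000317 and overlap no RefSeq gene. Their sum was 21.8, 28.7 and 50.5 CPM in normal and 3.26, 3.19 and 2.59 CPM in high glucose, with a median log2 change of -3.50. The row itself fell by 4.18 (edgeR adjusted p = 0.001). MSTRG.21713, the largest of the 5, fell by 3.18 (SE 0.316), less than the row by 1.03 (limma adjusted p = 0.0459). Behind UACA on chromosome 15, whose product takes part in apoptosis, 6 unspliced loci lay between 70594593 and 70653540, and 5 were called higher. Their sum was 5.78, 5.86 and 6.52 CPM in normal and 18.1, 13.6 and 14.3 CPM in high glucose, and UACA rose by 1.06 (adjusted p = 0.00989). The longest, MSTRG.11931, rose by 1.38 (SE 0.215, adjusted p = 0.00818).

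Another pair of neighbouring loci changed apart from the nearest gene. On chromosome 5, MSTRG.26665 went from 368, 455 and 343 counts to 30, 19 and 16 and fell by 4.18 (SE 0.305, edgeR adjusted p = 0.00138). Next to it MSTRG.26666 fell by 4.07 (SE 0.394, adjusted p = 0.00272). Their nearest coding row, 291762 bases away from the first, is ARRDC3, an arrestin family gene, which rose by 4.0 (adjusted p = 0.00228).

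Smaller runs beside or within the rows of coding genes also changed with those rows. On chromosome 7, from 39579720 to 39639882, all 5 loci in or behind YAE1 and in RALA, a small GTPase gene, were called lower, with a median of -2.98. Their summed levels were 8.32, 9.39 and 9.58 CPM in normal and 1.93, 1.08 and 1.85 CPM in high glucose, and the groups did not overlap. YAE1 fell by 1.15 and RALA by 1.03 (edgeR adjusted p = 0.00659 and 0.00309), and MSTRG.29747, an unspliced locus within YAE1, fell further than the gene (limma adjusted p = 0.0262). The row of PHF3 on chromosome 6, a gene for a protein that binds RNA polymerase II, spans 6 unspliced loci between 63728349 and 63770132. All 6 carry the name EYS, and EYS is the only RefSeq gene that they overlap. Their sums were 29.2, 28.1 and 13.9 CPM in normal and 10.2, 9.53 and 11.1 CPM in high glucose. Of the 6 loci 4 were called lower, and the PHF3 row fell by 0.69 (edgeR adjusted p = 0.0104). Behind RNF19B, a ubiquitin ligase gene of chromosome 1 that fell by 1.03 (adjusted p = 0.00394), MSTRG.1880 fell by 1.52 (SE 0.271, adjusted p = 0.0122), from 5.89, 6.75 and 3.74 CPM to 2.17, 1.69 and 1.86 CPM. Apart from these, in a row that joins MAP4K3-DT and TMEM178A on chromosome 2, 4 of 8 loci were called lower while the row differed by 0.03 (adjusted p = 0.934). Of the 4, MSTRG.18824 was separated from the row (-1.24, SE 0.291, limma adjusted p = 0.0407), and MSTRG.18830 fell by 1.28 (SE 0.302, edgeR adjusted p = 0.0278), from 8.47, 6.79 and 4.21 CPM to 2.61, 3.24 and 2.17 CPM.

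Transfer RNA genes are transcribed by RNA polymerase III into short precursors, which messenger RNA libraries recover poorly. In these libraries 39 of the assembled loci lay over tRNA genes, of which RefSeq holds 465. They made 63 overlaps of a locus with a gene, and a gene shared by overlapping loci of an array counts for each of them. Their median length was 364 bases, longer than the median tRNA gene of 73 bases, and 29 had no strand. In high glucose 11 were called lower and 0 higher, beside 9.86% called lower over all tested loci. The log2 change was below 0 in 36 and above 0 in 3, with a median of -0.90, and 19 had an unadjusted p under 0.05 with a fall, 0 with a rise. The summed level of the 39 was 89.5, 92.2 and 104 CPM in normal and 50.9, 55.1 and 56.3 CPM in high glucose. Near-identical copies of tRNA genes share reads, so the level of a single gene is uncertain. The call count was 2 to 9 when a library was left out and 4 with the replicate number as a block.

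The tRNA locus with the highest level, MSTRG.27928, covers TRL-TAA4-1, a leucine tRNA gene, at chromosome 6, 27230401 to 27230636. Its counts were 2250, 2080 and 2606 in normal and 998, 843 and 945 in high glucose, with no overlap. It fell by 1.34 (SE 0.154, edgeR adjusted p = 0.0036). MSTRG.27935 over TRI-AAT2-1, an isoleucine tRNA gene of chromosome 6, had a similar level, 15.0, 16.3 and 16.9 CPM in normal and 13.8, 15.5 and 13.5 CPM in high glucose, and differed by -0.17 (SE 0.132, adjusted p = 0.414). MSTRG.27904 over TRR-TCG2-1, an arginine tRNA gene, fell by 3.60 (SE 0.528, adjusted p = 0.00706), from 1.14, 1.10 and 1.62 CPM to 0.0897, 0.0456 and 0.182 CPM, the latter near the floor. MSTRG.10119 over TRP-TGG1-1, a proline tRNA gene, fell by 1.56 (SE 0.31, adjusted p = 0.0166). On chromosome 1, MSTRG.3490, MSTRG.3491 and MSTRG.3492 each span 6 tRNA genes of a repeated array and fell by 1.69, 1.53 and 1.23 (adjusted p = 0.0244, 0.0185 and 0.0424).

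**Figure D5:**
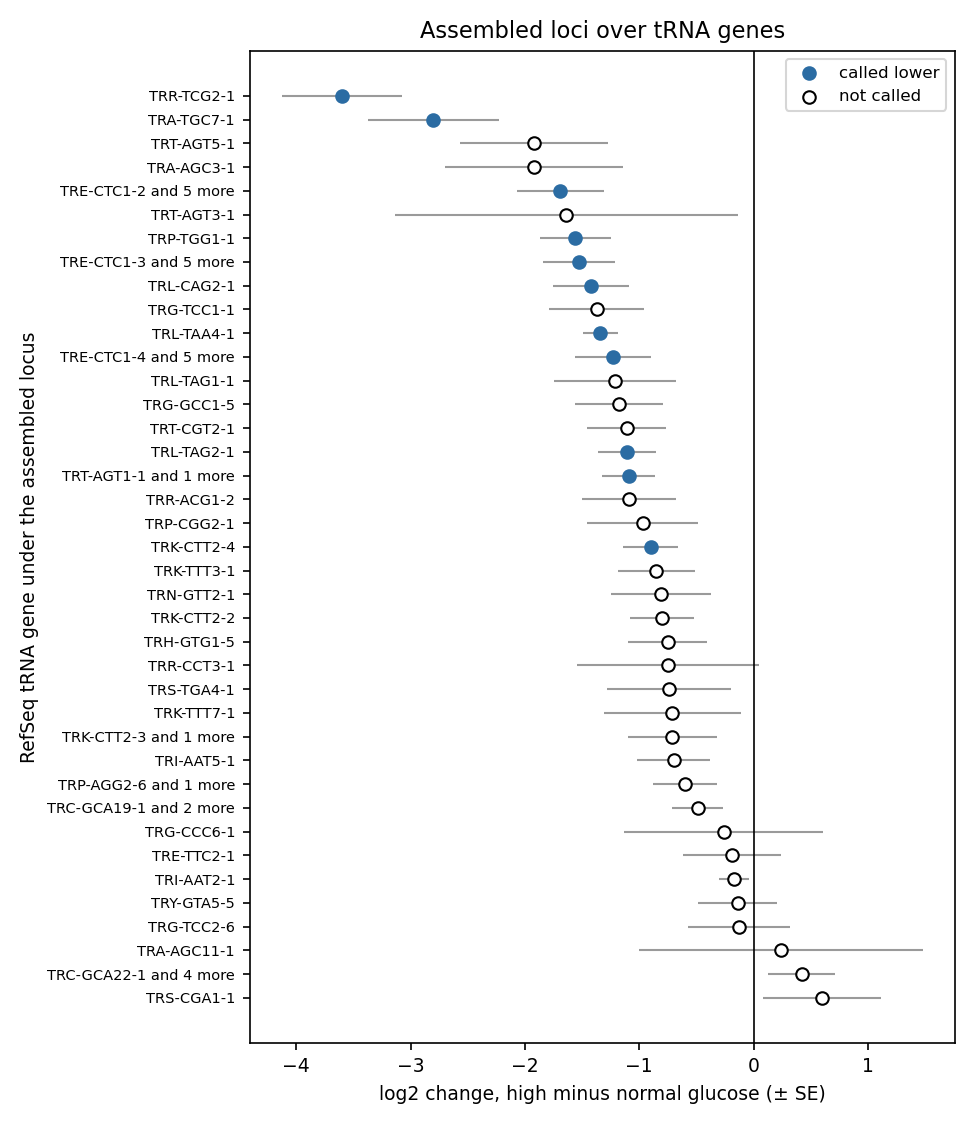
Each row is 1 of the 39 assembled loci over tRNA genes, named by its first RefSeq tRNA gene, with its log2 change (high minus normal glucose, bars ± SE) on the horizontal axis. Filled circles are the 11 called lower by edgeR, and 36 of the 39 lie left of 0.

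Several of the most abundant loci overlap genes with copies elsewhere. The most abundant, MSTRG.10450, is a plus-strand locus at chromosome 14, 49818260 to 49862848, with an exonic length of 570 bases. Whether it is a spliced transcript was not tested. MSTRG.10450 lies over RN7SL2 and RN7SL3, which encode the RNA of the signal recognition particle and lie on the other strand. It alone held 0.336%, 0.52% and 0.313% of the counts of normal 1, 2 and 3 and 0.447%, 0.343% and 0.291% of those of high 1, 2 and 3. It differed by -0.16 (SE 0.237, edgeR adjusted p = 0.678), and the RN7SL1, RN7SL2 and RN7SL3 rows differed by -0.28, -0.17 and -0.36 (adjusted p = 0.0964, 0.431 and 0.0798). MSTRG.22810, which overlaps RN7SL4P inside ANKRD28, was present in only some libraries, with 12, 6305 and 7 counts in normal and 0, 2979 and 1555 in high glucose (adjusted p = 0.906).

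MSTRG.21581 spans 184128 bases of chromosome 21, from 8253527 to 8437655, with an exonic length of 1323 bases. It overlaps several ribosomal RNA genes, RNA45SN3 and RNA18SN3 among them, so its level cannot be assigned to a single gene. It had 19238, 18733 and 14138 counts in normal and 5825, 3146 and 993 in high glucose. The groups did not overlap, and the high glucose libraries spread widely. It fell by 2.43 (SE 0.541, adjusted p = 0.0232 by edgeR), and its call was lost without normal 1, normal 2 or high 2 (0.0657, 0.0635 and 0.0917). MSTRG.19902 runs against PSMD14, which encodes a deubiquitinase of the proteasome, and covers the pseudogene MXRA7P1. It had 3822, 3485 and 3566 counts in normal and 5190, 4907 and 5087 in high glucose and rose by 0.46 (SE 0.102, adjusted p = 0.0225), while PSMD14 rose by 0.54 (adjusted p = 0.0149). The call of MSTRG.19902 was lost on leaving out any library other than normal 3.

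MSTRG.17118, in an intron of ADGRE3 and over ITGB1P1, a pseudogene of the integrin gene ITGB1, had 304, 220 and 377 counts in normal and 12494, 13511 and 480 in high glucose. High 3 was close to the normal glucose libraries. The call (4.82, SE 1.08, edgeR adjusted p = 0.0237) was lost without normal 1, normal 2, high 1 or high 2 (0.0721 to 0.0845). ITGB1 differed by 0.38 (adjusted p = 0.0974). MSTRG.13251 over HMGN2P41 on chromosome 16, a pseudogene of a chromatin protein and 1 of the loci farthest from a coding row, went from 775, 501 and 982 to 1540, 1287 and 1527 counts. It rose by 0.92 (SE 0.262, adjusted p = 0.0482), a call lost on leaving out any library other than normal 3. Pseudogenes share reads with their parents, so these levels are uncertain.

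Of the loci on the opposite strand of an overlapped coding row, 24 of 77 were called lower and 1 higher where that row was called lower, and 31 of 89 were called higher and 1 lower where it was called higher. Among those called lower, MSTRG.30327 runs against NYAP1, a gene of phosphoinositide signalling, at chromosome 7, 100492292 to 100503688. It had 362, 913 and 649 counts in normal and none in high glucose, at least 54.1-fold lower (edgeR adjusted p = 0.00274). NYAP1 fell by 1.78 (adjusted p = 0.00494), and the locus fell further than NYAP1 (-6.43, SE 0.498, limma adjusted p = 0.000391). MSTRG.20653 against ERFE, which encodes the iron-regulating hormone erythroferrone, went from 649, 688 and 157 to 7, 4 and 2 counts and fell by 6.82 (SE 0.746, adjusted p = 0.00315). The ERFE row on the plus strand fell by 5.15 (edgeR adjusted p = 0.00314). MSTRG.20653 was not separated from that row (-1.24, SE 0.404, limma adjusted p = 0.11). MSTRG.25578, which spans 62139 bases across QRFPR, a neuropeptide receptor gene, had 1573, 2187 and 120 counts in normal and 0, 8 and 0 in high glucose. It fell by 8.87 (SE 1.48, adjusted p = 0.00998), and normal 3 was far below normal 1 and 2. This call was lost without high 2 or high 3.

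MSTRG.18959 against RTN4, which encodes the reticulon Nogo, had 54, 216 and 61 counts in normal and none in high glucose, at least 9.27-fold lower (edgeR adjusted p = 0.0109). RTN4 fell by 0.73 (edgeR adjusted p = 0.00552), and the locus fell further than RTN4 (-4.8, SE 0.7, limma adjusted p = 0.00698). MSTRG.8831, an unspliced locus on the strand of RASSF9, went from 906, 578 and 149 to 0, 7 and 0 counts and fell by 7.80 (SE 1.15, adjusted p = 0.00719), below RASSF9 by 5.84 (SE 0.722, limma adjusted p = 0.00377). MSTRG.14935 over KRTAP2-3 and KRTAP2-4, keratin-associated protein genes on the other strand, had 0, 2 and 0 counts in normal and 162, 156 and 191 in high glucose. The ratio of summed, scaled counts was 251, with a 95% counting interval of 69.1 to 2080. That interval takes every count as independent, so with about 4 counts per fragment it is too narrow. The KRTAP2-3 and KRTAP2-4 rows rose by 3.73 and 4.39 (edgeR adjusted p = 0.00274 and 0.00739). MSTRG.14935 was not separated from the KRTAP2-4 row (1.93, SE 0.705, limma adjusted p = 0.148).

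Antisense pieces of 2 abundant genes were picked after their values were seen. MSTRG.29678, against the glycyl-tRNA synthetase gene GARS1, went from 22.9, 25.1 and 14.0 CPM to 7.86, 6.73 and 6.85 CPM and fell by 1.53 (SE 0.236, edgeR adjusted p = 0.00802), while GARS1 fell by 1.84 (adjusted p = 0.0057). MSTRG.8467, against the integrin gene ITGA5, went from 13.1, 14.1 and 14.8 CPM to 28.9, 28.9 and 27.6 CPM and rose by 1.02 (SE 0.118, adjusted p = 0.0036), while ITGA5 rose by 1.18 (adjusted p = 0.00213). Neither locus was separated from its gene (limma adjusted p = 0.486 and 0.722). Whether reads of the gene were counted in them was not tested.

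Several large changes lay outside coding rows. On chromosome 8, MSTRG.31432 and MSTRG.31433 lie 151890 and 114521 bases downstream of ZMAT4, and both carry the name AC105999 in the table. MSTRG.31432, which overlaps the RefSeq gene LOC105379388, had 165, 332 and 60 counts in normal and none in high glucose, at least 15.5-fold lower (edgeR adjusted p = 0.00915). MSTRG.31433 went from 498, 666 and 107 to 2, 4 and 0 counts and fell by 7.65 (SE 0.991, adjusted p = 0.00501). MSTRG.29067, named AL356234 in the table and 158251 bases from TNFAIP3, an inhibitor of NF-kB signalling, had 50, 70 and 41 counts in normal and none in high glucose, at least 4.51-fold lower (adjusted p = 0.00637), and TNFAIP3 differed by 0.47 (adjusted p = 0.198). MSTRG.22389, 4825 bases before CDC42EP1, rose by 4.74 (SE 0.819, adjusted p = 0.0111), from 0, 4 and 4 to 70, 53 and 102 counts, and CDC42EP1 differed by -0.06 (adjusted p = 0.714). MSTRG.22389 was not called without high 3.

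The loci farthest from a coding row among those called were MSTRG.19341 (2841017 bases), MSTRG.13251 (1957192 bases) and MSTRG.28522 (1230670 bases). MSTRG.19341 fell by 1.43 (SE 0.357, edgeR adjusted p = 0.0329), from 62, 85 and 51 to 25, 24 and 25 counts. MSTRG.28522 fell by 4.48 (SE 1.07, adjusted p = 0.0288), from 50, 55 and 13 to 4, 0 and 1 counts. Both calls were lost on leaving out any library other than normal 3. The longest loci, MSTRG.12961, MSTRG.21982 and MSTRG.23520, spanned 433478, 398095 and 359630 bases with exonic lengths of 1030, 2539 and 3735 bases. MSTRG.21982 on chromosome 22 rose by 2.12 (SE 0.272, adjusted p = 0.00493), from 154, 117 and 84 to 534, 613 and 419 counts. MSTRG.12961 differed by -1.15 (adjusted p = 0.0654) and MSTRG.23520 by -0.93 (adjusted p = 0.181).

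MicroRNA hairpins lay under 12 loci and on the locus's own strand in 4. MSTRG.7513 is a spliced minus-strand locus of chromosome 11 inside MIR100HG that holds the hairpin of miR-100, a microRNA whose seed (bases 2 to 8, in capitals) selects its targets.
hsa-miR-100-5p (chr11:122152275-122152296, minus strand): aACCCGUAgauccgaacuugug
The locus had 15.4, 13.3 and 23.8 CPM in normal and 19.6, 18.5 and 19.9 CPM in high glucose, and the groups overlapped. It differed by 0.14 (SE 0.224, edgeR adjusted p = 0.699), and the row holding MIR100HG fell by 0.63 (edgeR adjusted p = 0.0238). The locus was not separated from that row (0.80, SE 0.24, limma adjusted p = 0.0859). The level of a host transcript is not that of the mature microRNA, and that microRNA was not measured here.

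The checks of labels and cell identity were as follows. TXNIP and ARRDC4, arrestin genes that respond to glucose, rose by 5.04 and 2.35 (edgeR adjusted p = 0.00292 and 0.000458). Among 10 pigment epithelium markers, MITF and OTX2 were at 28.7 to 86.7 CPM, RPE65, TYR and TTR were at 0 to 0.182 CPM, and the other 5 lay between 0.909 and 12.9 CPM, of which BEST1 fell by 2.20 (adjusted p = 0.0113). The keratins KRT8 and KRT18 rose by 1.66 and 1.88 (adjusted p = 0.0152 and 0.00636). Of 6 fibroblast markers, COL1A1 fell by 2.49 (adjusted p = 0.0302) and PDGFRB rose by 0.68 (adjusted p = 0.00572). Normal 1 was above the other 5 libraries in COL1A1 (86.4 CPM), COL1A2 (28.7 CPM), DCN (4.25 CPM) and LUM (1.35 CPM). The others were at 7.86 to 39.2 CPM for COL1A1, 0.862 to 2.49 for COL1A2, 0.0466 to 0.258 for DCN and 0.0722 to 0.415 for LUM, and COL1A2, DCN and LUM were not called (adjusted p = 0.229, 0.211 and 0.831). PDGFRA shares a row with FIP1L1, which differed by 0.07 (adjusted p = 0.671). In bulk RNA fewer cells of a type and less RNA per cell cannot be told apart, and the part of these genes' shifts in the results above was not tested.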

How the data were processed

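The authors deposited 1 table with whole-number counts and FPKM values per locus and library, per the file headers. The deposited FPKM values are scaled to locus length and library size and hold 0.0001 where the count is 0. Bowtie 0.12.2 and mm8, a mouse build, are listed in the submitters' processing notes, but of 33520 gene symbols compared, 99.68% overlapped their GRCh38.p14 position, so coordinates are those of the table. The counter and any use of strand are not given in the sources used here, so a gene and its antisense partner may share reads. The protocol text names fractions with and without poly(A).

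Mitochondrial rows (37, all without counts) were left out. Loci passing filterByExpr were tested over the whole table with edgeR 4.0.16 (TMM, glmQLFit and glmQLFTest, 2-sided, group only, Benjamini-Hochberg adjustment over all tested loci). CPM are TMM-scaled, log2 changes come from edgeR, with SE taken as the change over the root of its F statistic. Differences from the nearest protein-coding row were tested with limma 3.58.1 on log2 CPM (prior count 2), adjusted over 10474 pairs. Exonic length is the count over FPKM, scaled so that unstranded loci of 200 or more counts equal their span, from libraries with 40 or more counts. A group without counts is set to the floor of 12 counts (3 fragments of 4) per library. Intervals and floors cover counting error only.

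On simulated counts for the 25025 loci the edgeR step called 0% of 100 loci changed 2-fold and 14% of 100 changed 4-fold. It called 0% of unchanged loci. Only those loci were changed there, while 4906 were called in the data, so the adjustment was stricter in the simulation. Small changes can be missed, but these rates do not give the sensitivity of the reported calls. Members and lists were chosen with earlier results of these data known. The named loci are the 8 called with the largest log2 change in each direction (groups not overlapping, 40 or more counts in 3 or more libraries), the 5 with the highest mean FPKM, the 3 longest, the 3 called farthest from a coding row and the 3 called with the smallest adjusted p against it. Others were chosen after their values were seen. The planned test of the share of library counts is replaced by its values per library, and repeat and polyadenylation features were not analysed here. Promoters and microRNAs come from RefSeq (GRCh38.p14). Alternatives were DESeq2 1.42.0, other scalings, filters and membership limits, counts divided by 4, voom, a replicate block and the omission of each library. The result of 1 gene is not reported here.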

Additional observations from a re-analysis of the deposited data

How the results depend on the processing

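Loci called higher (239) and lower (392) gave 365 higher with DESeq2, where lower calls stayed within 1.5 times, and 77 to 320 higher and 114 to 518 lower when each library was left out in turn. Loci above (100) and below (163) the nearest coding row gave 27 to 119 and 57 to 199 with a library left out, and 91 below against the nearest coding row of the same strand, where fewer loci have such a neighbour. Other scalings, filters, membership limits and counts divided by 4 kept these 4 totals within 1.5 times. Within 10 kb downstream, the 44 higher calls became 28 with no filter, 73 with DESeq2 and 5 to 57 with a library left out, and the 100 lower calls became 154 with DESeq2 and 18 to 122 with a library left out. The 50 lower calls on the opposite strand of a coding row became 80 with DESeq2. Same-numbered libraries did not deviate together (correlations -0.017 to 0.017). With the replicate number as a block 126 loci were called higher and 182 lower, and 69 moved above and 109 below the neighbour. The share of library counts was lower in high glucose by 0.106 percentage points, and the groups overlapped. With a library left out the difference ran from -0.186 to -0.0308, and at -0.186, without normal 3, the remaining libraries did not overlap. MSTRG.10450 (-0.16) ran from -0.33 to 0.11 with a library left out (0.11 without normal 2), and MSTRG.22810 (-0.48) from -1.38 to 7.28 (7.28 without normal 2, 0.11 without high 1) and was 0.93 with the replicate block, neither locus being called in the fit of all libraries. The causes were not tested, and an omission leaves fewer libraries.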
